A study of Rattus norvegicus with 7 samples.

Results

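A set of 10 genes that restrain ERK signalling were followed through 7 transcriptomes of cultured rat oligodendrocyte progenitor cells. The genes were chosen by symbol: the dual-specificity phosphatases Dusp1, Dusp4, Dusp5 and Dusp6, the Sprouty genes Spry1, Spry2 and Spry4, the Sprouty-related genes Spred1 and Spred2, and Errfi1. Each of the 10 symbols matched 1 row of the 32852 genes deposited. The list was drawn up with the siRNA differences of these same libraries known. Those differences are therefore a description. Where calls from fits over the whole table are counted among the members, they describe the same choice, and neither the differences nor the calls support anything by themselves. Of the libraries, 3 came from cells given an siRNA that targets RNLTR12-int, the internal part of a rat endogenous retrovirus. The other 4 libraries came from cells transfected with a control siRNA. All 7 shared the rest of the design. The cells were isolated from wild-type rats at postnatal day 7 and plated at about 40000 per well. The change to differentiating medium came with the transfection, and culture lasted a further 4 to 5 days. The labels call the libraries of each group biological replicates. They name neither strain, animal nor culture day, so the spread between libraries may in part be technical. The level of RNLTR12-int was not analysed here, and its knockdown was not checked.

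ERK is the last kinase of a cascade that runs from growth factor receptors through Ras, Raf and MEK, and in the oligodendrocyte lineage it is known for a part in progenitor growth and in the making of myelin. Active ERK turns on the genes of its own inhibitors, so that their transcripts follow the activity of the pathway with a delay. Dual-specificity phosphatases remove the phosphates that keep MAP kinases active, Sprouty and Spred proteins act upstream, at the level of Ras and Raf, and the Errfi1 protein binds the EGF receptor and blocks its kinase.

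Promoter sequences are shown for Dusp1 and Dusp5, the members with a whole cAMP response element or CArG box, and for Errfi1, whose levels ran closest to the mean of the list; both motifs are linked to early response transcription. The 250 bases before the start site were read from RefSeq's promoter table (build GRCr8), which held 9 of the 10 members in 10 windows; Dusp4 was the exception. The motifs searched on both strands were the cAMP response element TGACGTCA, its core TGACG, the AP-1 site TGANTCA, the ETS site CCGGAAGT and the CArG box, which serum response factor binds. The core is contained in the whole element. Capitals mark the matches in 3 windows, all on the plus strand: Dusp1 at chr10:17184603-17184852, Dusp5 at chr1:262543524-262543773 and Errfi1 at chr5:166606591-166606840.
Dusp1: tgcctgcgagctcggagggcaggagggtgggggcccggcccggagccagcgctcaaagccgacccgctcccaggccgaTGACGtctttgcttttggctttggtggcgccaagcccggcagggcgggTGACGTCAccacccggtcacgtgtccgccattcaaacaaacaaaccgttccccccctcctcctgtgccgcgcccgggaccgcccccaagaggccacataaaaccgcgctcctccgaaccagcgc
Dusp5: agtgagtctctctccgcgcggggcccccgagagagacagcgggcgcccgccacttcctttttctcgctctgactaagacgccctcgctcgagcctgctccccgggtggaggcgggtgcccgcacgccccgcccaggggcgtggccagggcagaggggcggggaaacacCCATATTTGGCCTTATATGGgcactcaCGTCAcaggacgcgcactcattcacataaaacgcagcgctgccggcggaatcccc
Errfi1: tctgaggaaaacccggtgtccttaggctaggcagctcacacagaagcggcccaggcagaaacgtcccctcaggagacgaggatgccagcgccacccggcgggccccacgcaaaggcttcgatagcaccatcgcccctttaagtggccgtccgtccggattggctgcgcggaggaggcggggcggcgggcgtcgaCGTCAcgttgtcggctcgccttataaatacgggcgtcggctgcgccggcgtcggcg

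Dusp1 held the whole cAMP response element, from 124 to 117 bases before the start, and a further core from 172 to 168. Among all 33469 windows of the table, 1.59% held the whole element. Dusp5 held a pair of CArG boxes that touch each other, from 82 to 73 and from 72 to 63 bases before the start, and 1.50% of all windows held a CArG box. The core was found in windows of Dusp1, Dusp5, Errfi1, Spred2 and Spry2, which is 5 of the 10 member windows, against 18.2% of all windows. The AP-1 site and the ETS site, present in 6.34% and 3.10% of all windows, matched 0 member windows. These are letter matches and not shown to be bound.

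Before the values, the libraries themselves need a description. Recovered reads numbered 31609908 to 48187822 in siRNLTR12-int libraries and 22523873 to 61803693 in control siRNA libraries. All 9 oligodendrocyte and all 5 progenitor markers were detected. In siRNLTR12-int replicates 1 to 3 the progenitor markers summed to 216518, 336992 and 321443 normalised counts. In control replicates 1 to 4 they summed to 209143, 212197, 284940 and 285780. The summed normalised count of the oligodendrocyte markers was 128637 to 163646 in siRNLTR12-int libraries and 223068 to 950452 in controls, with control replicate 2 at the top. Other cells were present: all 10 astrocyte markers were measured, and their sum was 640492, 578993 and 517694 in siRNLTR12-int replicate 1 and control replicates 1 and 2, against 131899 to 153384 in the other 4 libraries. The 9 measured microglia markers had sums of 15058, 12792 and 4408 in those same 3 libraries and 1532 to 2244 in the other 4. The 9 neuron markers differed little (26393 to 34808). The 8 vascular markers in the table had sums of 1285 to 1828 in siRNLTR12-int libraries and 648 to 2589 in controls, and Cldn5 among them was at 0 in all libraries. The split in astrocyte markers cuts across the siRNA groups, so the differences of the members and the medians of the other lists are also given within it. In bulk RNA, fewer cells of a type and less RNA per cell cannot be told apart.

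All 10 members had higher mean levels in the siRNLTR12-int libraries than in the control libraries, by 1.22 to 3.59 times. On the log2(normalised count + 1) scale the difference ranged from 0.29 (Spred1) to 1.73 (Spry1), with a median of 1.17, beside a median of 0.01 over all 18225 genes tested (mean level 10 or more). A difference above 0 was found in 10 of 10 members and in 51.0% of all genes tested. Groups did not overlap, with every siRNLTR12-int library above every control library, in 6 of 10 members and in 4.09% of all genes tested. With limma, fitted over the whole table with Benjamini-Hochberg adjustment at 0.05, 0 members and 0.0% of the genes tested were higher, while 9 members and 3.33% of genes were higher at an unadjusted p under 0.05. By edgeR on recovered reads the same counts were 0 and 0.0% after adjustment, and 9 and 3.18% without it. Of the members 3, Errfi1, Dusp1 and Dusp4, belonged to the 72 genes called higher in the authors' deposited table (DESeq2), which is 0.384% of the genes given an adjusted p. Errfi1 and Dusp1 carried the authors' UP mark, as did 0.203% of those genes, and Dusp4, with a log2 fold change of 0.93 in the authors' deposited table, did not. As the list was chosen on this contrast, nothing is read from these shares.

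**Figure D1:**
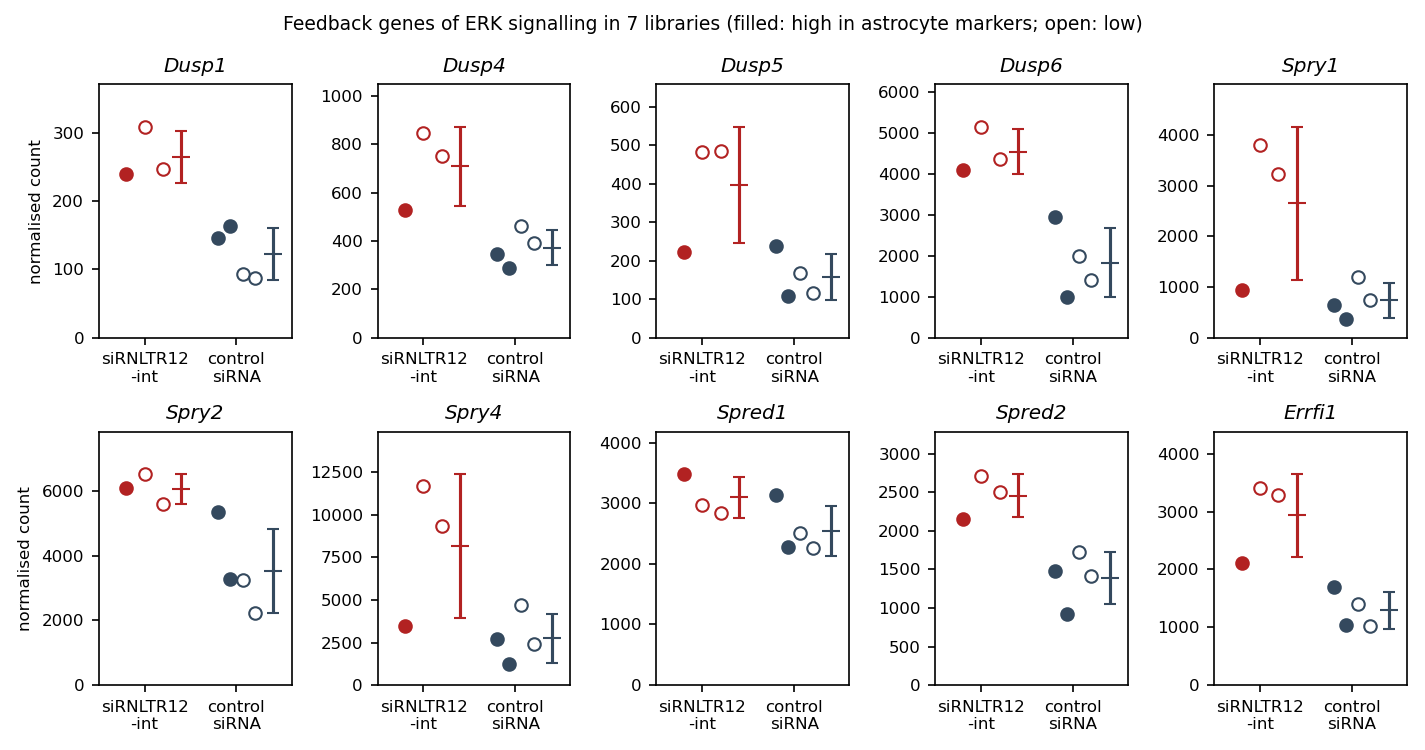
Normalised count (vertical axis, from 0) of each of the 10 genes in the 3 siRNLTR12-int libraries (red) and the 4 control siRNA libraries (dark blue); each point is 1 library, the bars give mean and SD, and filled points are the 3 libraries high in astrocyte markers. Dusp1, Dusp4, Dusp6, Spry2, Spred2 and Errfi1 show red points above every blue one, and in Dusp5, Spry1 and Spry4 the filled red point lies within the range of the blue ones.

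Dusp1 (ENSRNOG00000003977) encodes an early response phosphatase that acts on p38 and JNK as well as on ERK. Its normalised counts were 239, 309 and 247 in siRNLTR12-int replicates 1 to 3 and 145, 164, 93.1 and 86.9 in control replicates 1 to 4. The groups did not overlap, and the lowest siRNLTR12-int library was 1.46 times the highest control. The means were 265 ± 38.0 (SD, n = 3) after siRNLTR12-int and 122 ± 38.2 (SD, n = 4) after control siRNA, a log2 difference of 1.15 with a standard error of 0.27. Dusp1 was the member with the fewest reads, from 49 to 307 per library. Among the controls it was high where astrocyte markers were high: replicates 1 and 2 exceeded replicates 3 and 4.

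Dusp4 and Dusp5 encode phosphatases of the nucleus, and the Dusp5 enzyme is selective for ERK. Dusp4 (ENSRNOG00000011921) had 529, 847 and 753 normalised counts in siRNLTR12-int replicates 1 to 3, against 345, 290, 460 and 392 in control replicates 1 to 4. Here too the groups were apart, with siRNLTR12-int replicate 1 the nearest to the controls (log2 difference 0.92, standard error 0.22). Dusp5 (ENSRNOG00000014061) had 222, 482 and 485 normalised counts in siRNLTR12-int replicates 1 to 3, against 239, 109, 169 and 115 in control replicates 1 to 4. Its groups overlapped, because siRNLTR12-int replicate 1 lay below control replicate 1. The means of Dusp5 were 396 ± 151 (SD, n = 3) after siRNLTR12-int and 158 ± 60.4 (SD, n = 4) after control siRNA, a log2 difference of 1.31 with a standard error of 0.39.

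Dusp6 (ENSRNOG00000023896) encodes the cytoplasmic phosphatase that is specific for ERK and is widely used as a readout of the pathway. Its normalised counts were 4101, 5150 and 4362 in siRNLTR12-int replicates 1 to 3 and 2950, 996, 1984 and 1414 in control replicates 1 to 4. All 3 siRNLTR12-int libraries were close to each other (coefficient of variation 12.0%) and above the controls, which were widely spread (46.1%). Means of Dusp6 were 4537 ± 546 (SD, n = 3) after siRNLTR12-int and 1836 ± 846 (SD, n = 4) after control siRNA, and the log2 difference was 1.41 with a standard error of 0.34. The lowest control was replicate 2, which had the highest sum of oligodendrocyte markers. Replicate 2 was also the lowest control for Dusp4, Dusp5, Spry1, Spry4 and Spred2, but not for Dusp1, Spry2, Spred1 and Errfi1. Oligodendrocyte marker sums were 223068, 950452, 282684 and 362587 in control replicates 1 to 4. Minus each gene's own mean over the 7 libraries, the log2 levels of the 10 members averaged -0.15, -0.88, -0.23 and -0.67 there. The part of the oligodendrocyte markers in the differences of Dusp6 and the other members was not tested.

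Spry1 and Spry4 had the largest differences and the widest spread. Spry1 (ENSRNOG00000025371) had 943, 3795 and 3224 normalised counts in siRNLTR12-int replicates 1 to 3, against 655, 369, 1191 and 742 in control replicates 1 to 4. Spry4 (ENSRNOG00000013851) had 3500, 11692 and 9376 normalised counts in siRNLTR12-int replicates 1 to 3, against 2735, 1207, 4692 and 2402 in control replicates 1 to 4. In both genes siRNLTR12-int replicates 2 and 3 stood far above all other libraries, while replicate 1 lay below control replicate 3. The log2 differences were 1.73 (standard error 0.56) for Spry1 and 1.56 (standard error 0.55) for Spry4. Without siRNLTR12-int replicate 1 the difference of Spry1 was 2.36, and the groups of both genes no longer overlapped; 9 members were then apart, against 18.4% of genes tested.

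Spry2 (ENSRNOG00000010058), the third Sprouty gene, behaved differently across the libraries. It had 6088, 6533 and 5615 normalised counts in siRNLTR12-int replicates 1 to 3 and 5351, 3292, 3251 and 2219 in control replicates 1 to 4. Replicate 1 was not set apart from the other siRNLTR12-int libraries, whose coefficient of variation of 7.56% was the smallest of the 10 members. The groups were apart by a narrow margin, the lowest siRNLTR12-int library being 1.05 times the highest control (log2 difference 0.85, standard error 0.27).

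Spred1 and Spred2 encode membrane proteins that bring the Ras inhibitor neurofibromin to Ras. Spred2 (ENSRNOG00000004888) had 2157, 2715 and 2503 normalised counts in siRNLTR12-int replicates 1 to 3, against 1485, 920, 1722 and 1412 in control replicates 1 to 4. These groups were apart, with a log2 difference of 0.86 and a standard error of 0.22. Spred1 (ENSRNOG00000005209) had 3487, 2971 and 2848 normalised counts in siRNLTR12-int replicates 1 to 3, against 3147, 2284, 2506 and 2264 in control replicates 1 to 4. It had the smallest difference of the list (0.29, standard error 0.14), and its groups overlapped, with control replicate 1 second only to siRNLTR12-int replicate 1.

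Errfi1 (ENSRNOG00000058186), whose protein inhibits the EGF receptor, had 2109, 3414 and 3283 normalised counts in siRNLTR12-int replicates 1 to 3 and 1699, 1046, 1406 and 1018 in control replicates 1 to 4. The groups were apart, and replicate 1 was again the lowest of the siRNLTR12-int libraries. Mean levels were 2936 ± 718 (SD, n = 3) after siRNLTR12-int and 1292 ± 324 (SD, n = 4) after control siRNA, a log2 difference of 1.18 with a standard error of 0.24. In the authors' deposited table the log2 fold change of Errfi1 was 1.18 as well, with a standard error of 0.28.

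Within the split in astrocyte markers, all 10 members kept a positive difference on both sides, as did 51.7% of genes tested on the low side and 51.4% on the high side. On the low side, 2 libraries against 2, the groups of all 10 members were apart, against 31.2% of the genes tested. The median difference of the members there was 1.49. On the high side, 1 library against 2, siRNLTR12-int replicate 1 lay above both controls in 9 of 10 members, against 33.3% of the genes tested, and the median difference was 0.70. Dusp5 was the exception, at 222 in siRNLTR12-int replicate 1 and 239 and 109 in control replicates 1 and 2. For Dusp6 the difference was 1.50 on the low side and 1.26 on the high side, and for Spred2 it was 0.74 and 0.88. In the same order of sides the differences were 0.91 and 0.74 for Dusp4 and 0.29 and 0.38 for Spred1. The sides were further apart in Dusp5 (1.79 and 0.46), Dusp1 (1.61 and 0.63), Spry1 (1.89 and 0.94), Errfi1 (1.48 and 0.66), Spry4 (1.64 and 0.95) and Spry2 (1.17 and 0.54). Since the high side holds 1 siRNLTR12-int library, these gaps between the sides were not tested, and as the list was chosen on the siRNA contrast in these libraries, nothing is read from the shares.

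**Figure D2:**
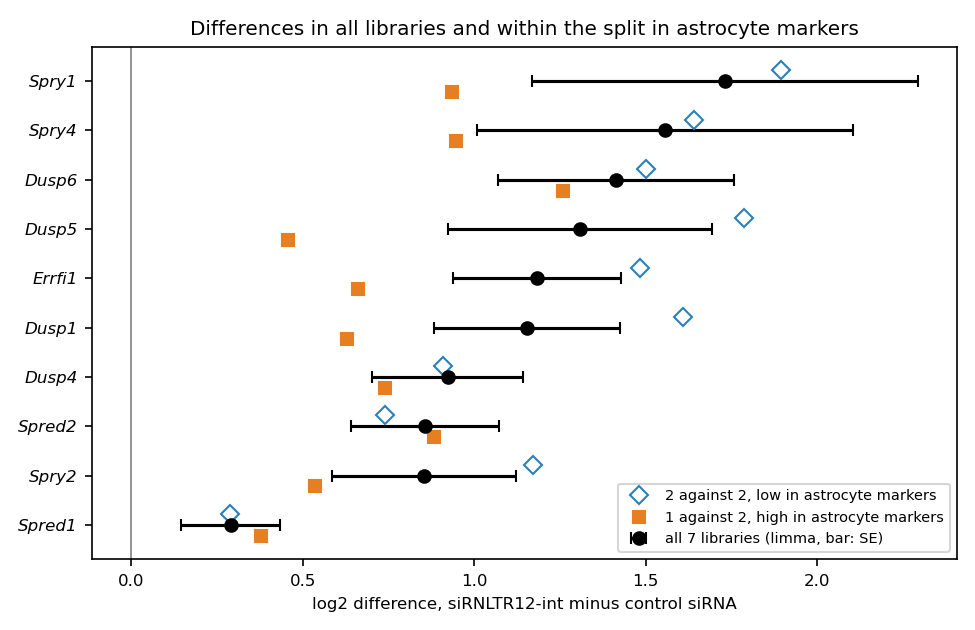
Log2 difference of siRNLTR12-int minus control siRNA (horizontal axis) for the 10 genes (vertical axis), over all 7 libraries with its standard error (black), in 4 libraries low in astrocyte markers (open diamonds) and in 3 high in them (squares). Every symbol lies to the right of 0; the diamonds run from 0.29 for Spred1 to 1.89 for Spry1.

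The members also varied along the astrocyte split within each siRNA group, a contrast the choice of genes did not use. Spry1 and Spry4 were low where astrocyte markers were high. Among siRNLTR12-int libraries the high side minus the low side was -1.89 for Spry1 and -1.58 for Spry4 on the log2 scale, and among controls it was -0.93 and -0.89. They were the members lower by at least 0.5 in both siRNA groups, as were 7.15% of the genes tested. Pdgfra, the receptor that marks progenitors, is set beside them after its values were seen, and the other progenitor markers are not listed singly. It had 16580 normalised counts in siRNLTR12-int replicate 1, against 53301 and 50749 in replicates 2 and 3. Among the controls Pdgfra had 13936 and 14570 in replicates 1 and 2, against 39041 and 38097 in replicates 3 and 4. By contrast, Dusp1 and Spry2 were higher on the high side among controls (0.77 and 0.64) and near level among siRNLTR12-int libraries (-0.21 and 0.01). No member was higher by 0.5 or more in both siRNA groups, against 15.8% of the genes tested. With 1 siRNLTR12-int library on the high side these values carry no test, and how far they follow from the cell mixture was not tested.

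**Figure D3:**
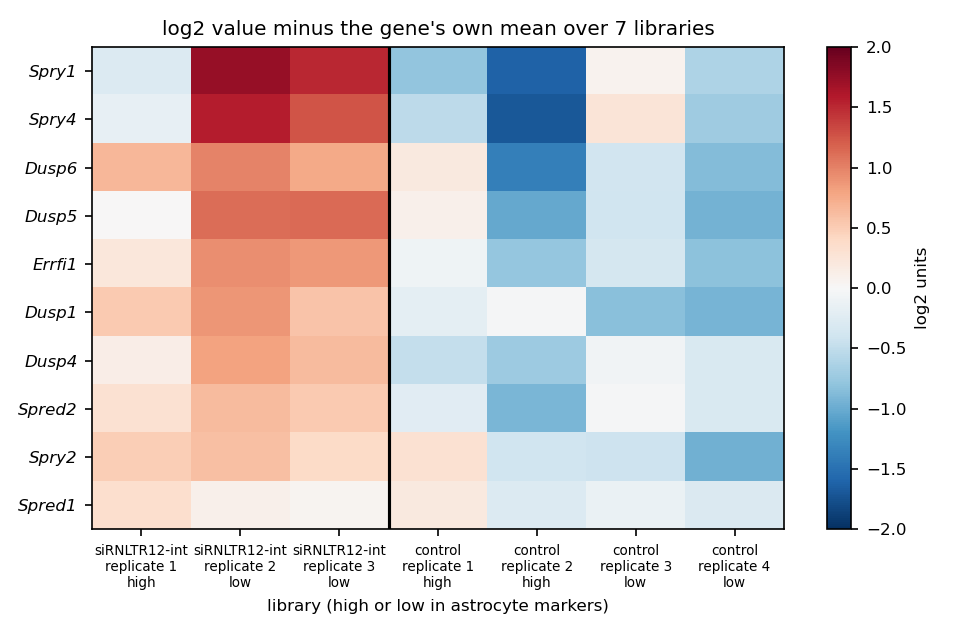
Log2(normalised count + 1) of each gene minus its own mean over the 7 libraries (colour scale, log2 units), with genes in rows, ordered by their siRNA difference, and libraries in columns, siRNLTR12-int left of the line and control siRNA right of it. Spry1 and Spry4 are darkest red in siRNLTR12-int replicates 2 and 3 and slightly blue in replicate 1, and the mean over the 10 genes was lowest in control replicate 2, at -0.88.

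Likeness of pattern was measured as the root mean square distance between mean-centred log2 profiles over the 7 libraries, where 0 is an identical course. Dusp4 and Spred2 were nearest to each other (0.16), as were Spry1 and Spry4 (0.18) and Dusp5 and Errfi1 (0.19). The widest distance within the list was that between Spry1 and Spred1 (1.07). Errfi1 ran closest to the mean profile of the 10 members (0.10). That mean profile was 0.23, 0.94 and 0.77 in siRNLTR12-int replicates 1 to 3 and -0.15, -0.88, -0.23 and -0.67 in control replicates 1 to 4. Among 12358 other named genes with a mean of at least 100, the 5 nearest to the mean profile were Lmo1 (0.13), Edil3, a secreted integrin ligand (0.15), Kitlg (0.16), the cell cycle inhibitor Cdkn2b (0.17) and P4ha3, a prolyl hydroxylase of collagen (0.18). Lmo1, a transcriptional cofactor, had 473, 601 and 516 normalised counts in siRNLTR12-int replicates 1 to 3, against 299, 165, 291 and 200 in control replicates 1 to 4. Kitlg, the ligand of the Kit receptor, averaged 1749 ± 424 (SD, n = 3) after siRNLTR12-int and 918 ± 326 (SD, n = 4) after control siRNA. The 5 genes were picked as nearest to a mean profile that itself holds the siRNA contrast, so their siRNA differences follow from that choice.

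For the other lists of the pathway, calls are also given from a limma fit of the 4 libraries low in astrocyte markers alone, a side defined from the data, where 4.02% of all genes tested were called higher and 2.67% lower at an adjusted p under 0.05. Relatives of the members did not share one direction. Of the 10 further Dusp, Spry and Spred genes 9 were tested, 5 had a positive and 4 a negative difference, and the median was 0.08. Dusp9 did not reach the minimum level. Spred3, the third Spred gene, had 808, 1081 and 1025 normalised counts in siRNLTR12-int replicates 1 to 3, against 581, 309, 595 and 642 in control replicates 1 to 4, with groups apart (log2 0.91, limma adjusted p = 0.675). Dusp2 differed by 1.07 at a low level of 30.4 ± 6.70 (SD, n = 3) after siRNLTR12-int and 15.0 ± 7.46 (SD, n = 4) after control siRNA, and Dusp3 by -0.38 (limma adjusted p = 0.780 and 0.899). Neither limma over all 7 libraries nor the authors' deposited table called any of the 9; at an unadjusted p under 0.05, 2 were higher with limma and 1 with edgeR. The median was 0.05 on the low side of the astrocyte split and -0.40 on the high side, and in the 4 libraries of the low side limma called 1 gene, Spred3, higher.

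A list drawn up as other brakes of receptor and Ras signalling was mixed, with 10 of 14 above 0 and a median of 0.23. Whether Trib1 and Ier3 of this list act as brakes was not tested here, and Ier3 is also counted among the ERK output genes below. None of the 14 was called with limma over all 7 libraries, and 5 were higher at an unadjusted p under 0.05 with limma and with edgeR. Trib1, a pseudokinase that binds MEK, rose by 1.55 on the log2 scale (DESeq2 adjusted p = 0.00194, from the authors' deposited table). With limma over all 7 libraries Trib1 differed by 1.59 (limma adjusted p = 0.647). Its normalised counts were 1203, 1820 and 1529 in siRNLTR12-int replicates 1 to 3 and 807, 411, 477 and 378 in control replicates 1 to 4, so that the groups were apart. Lrig3, a membrane protein, and Ier3, an early response gene whose protein ERK phosphorylates, differed by 0.47 and 1.39 with groups apart (limma adjusted p = 0.661 for both). In the authors' deposited table the DESeq2 adjusted p was 0.0740 for Lrig3 and 0.187 for Ier3. This list had a median of 0.25 on the low side and 0.19 on the high side, and in the 4 libraries of the low side limma called Trib1, Ier3, Lrig3 and Rasa2 higher, Rasa2 being named after its values were seen.

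Ligands and receptors upstream of the cascade were mixed. Of 14 tested ligands 9 were above 0, with a median of 0.07, and of 13 receptors 7 were, with a median of 0.10. No gene of these lists was called by limma over all 7 libraries or in the authors' deposited table. At an unadjusted p under 0.05 limma placed 2 ligands and 1 receptor higher and 1 receptor lower, and edgeR 3 ligands and 1 receptor higher. Hbegf, a ligand of the EGF receptor, had 650, 4260 and 3554 normalised counts in siRNLTR12-int replicates 1 to 3 and 711, 507, 1147 and 781 in control replicates 1 to 4. It was high in siRNLTR12-int replicates 2 and 3, as were Spry1 and Spry4, and within the control range in replicate 1 (log2 1.51, limma adjusted p = 0.794). Areg, another ligand of that receptor, and Nrg1, the ligand of ErbB receptors, differed by 1.53 and 0.69, both with groups apart (limma adjusted p = 0.712 and 0.701). The level of Areg was low, at 29.4 ± 6.26 (SD, n = 3) after siRNLTR12-int and 10.9 ± 6.60 (SD, n = 4) after control siRNA. Ereg did not reach the minimum level. Among receptors, Met differed by 0.86 with groups apart, Fgfr1 by 0.47 and Fgfr2 by -1.31 (limma adjusted p = 0.661, 0.796 and 0.772). Within the astrocyte split the ligands had medians of 0.25 on the low side and 0.31 on the high side, and the receptors 0.24 and -0.05. In the 4 libraries of the low side limma called 2 ligands, Hbegf and Nrg1, and 3 receptors, Met, Fgfr1 and Pdgfra, higher, and Fgfr2 lower.

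Components of the cascade itself lay slightly below 0 on the median (-0.06), with 16 of 22 negative. None was called by limma over all 7 libraries or in the authors' deposited table; at an unadjusted p under 0.05 limma placed 2 higher and 2 lower, and edgeR 2 higher and 3 lower. Frs2, the adaptor that couples FGF receptors to Ras, had 4763, 4458 and 4570 normalised counts in siRNLTR12-int replicates 1 to 3, against 5718, 6377, 5364 and 6422 in control replicates 1 to 4. All siRNLTR12-int libraries were below the controls (log2 -0.37, limma adjusted p = 0.661). The kinases downstream of ERK encoded by Rps6ka1 and Rps6ka3 differed by 0.52 and 0.42 with siRNLTR12-int libraries above (limma adjusted p = 0.661 for both). The median of the cascade was -0.07 on the low side and -0.13 on the high side, and in the 4 libraries of the low side limma called Rps6ka1 and Rps6ka3 higher and Rps6ka2, named after its values were seen, lower.

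Transcripts that ERK is known to induce, other than the members, were counted in the same way. Of 20 such genes 20 had a positive difference, against 51.0% of all genes tested, with a median of 0.92. In 8 the siRNLTR12-int libraries were all above the controls, against 4.09% of all genes tested. With limma over all 7 libraries 0 passed, and at an unadjusted p under 0.05 10 were higher, against 3.33% of genes with limma and 3.18% with edgeR. In the 4 libraries of the low side limma called 17 of the 20 higher, against 4.02% of all genes tested. The median was 1.14 on the low side and 0.66 on the high side. On both sides 20 of 20 were positive, against 51.7% of all genes tested on the low side and 51.4% on the high side. This list was also drawn up with earlier results of these libraries known, so nothing is read from these shares, and Ier3, Hbegf and Areg stand in a second list as well. Epha2, an ephrin receptor, rose by 1.71 on the log2 scale (DESeq2 adjusted p = 4.9e-06, from the authors' deposited table). Its normalised counts were 174, 177 and 187 in siRNLTR12-int replicates 1 to 3 and 75.6, 38.5, 47.4 and 60.3 in control replicates 1 to 4. The groups were apart, with a small spread among siRNLTR12-int libraries and a wider one, from 38.5 to 75.6, among controls. Fosl1, an AP-1 subunit, rose by 1.72 (DESeq2 adjusted p = 0.0169, again from the authors' deposited table), with 558, 1752 and 1554 normalised counts in siRNLTR12-int replicates 1 to 3 and 408, 253, 517 and 383 in control replicates 1 to 4. Replicate 1 was the lowest siRNLTR12-int library for Fosl1, as it was for Hbegf and for every member except Spry2 and Spred1. The immediate early gene Fos, chosen here after its values were seen, had overlapping groups, at 1678 ± 196 (SD, n = 3) after siRNLTR12-int and 1366 ± 420 (SD, n = 4) after control siRNA.

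**Figure D4:**
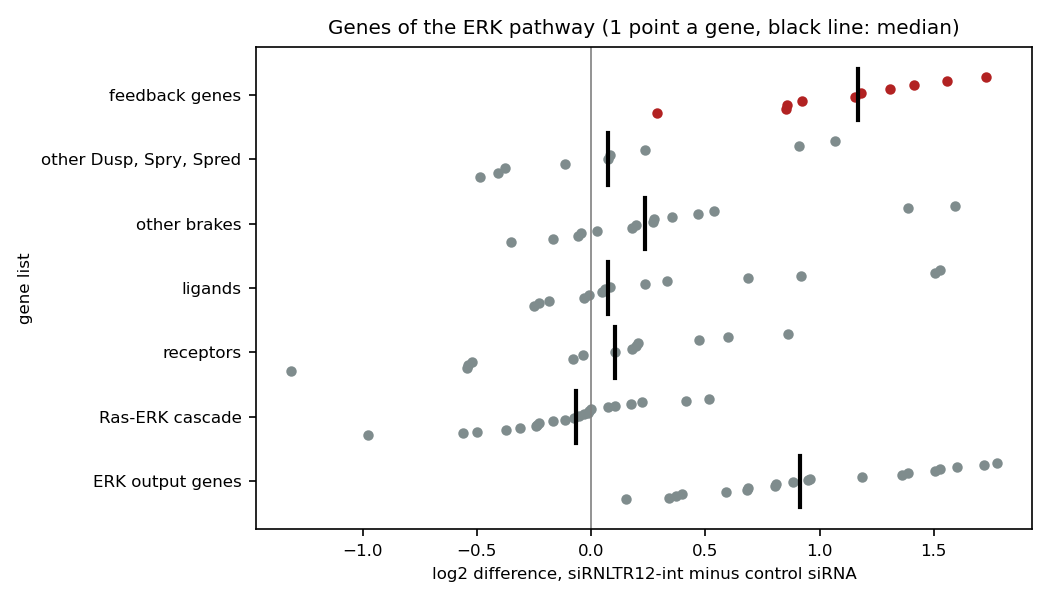
Log2 difference of siRNLTR12-int minus control siRNA (horizontal axis) for each tested gene of 7 lists of the ERK pathway (vertical axis); each point is 1 gene and the black line is the median of the list. The feedback genes (red, median 1.17) and the ERK output genes (median 0.92) lie to the right of 0, and the cascade components are centred at -0.06.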

How the data were processed

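Total RNA, after removal of ribosomal RNA, gave strand-specific paired-end libraries, per the labels' protocols. Salmon, DESeq2 and build Rnor_6.0 are named, without versions, per the submitters' processing notes. The authors deposited a normalised count (signal) for each gene in each library, and their own comparison as log2 fold changes, a test score, p-values and adjusted p-values, per the file headers. The deposited signal rises in steps of 1 read: 100% of values above 0 were whole to within 0.01 of a step, so reads could be recovered. Log2(normalised count + 1) was fitted with limma 3.58.1 (mean-variance trend, two-sided, no covariate) over the 18225 genes averaging 10 or more. The edgeR 4.0.16 and DESeq2 1.42.0 fits used the recovered reads. Reads of near-identical gene copies may have been divided in a way the sources used here do not state. The limma and edgeR fits were tested on simulated data with no split in cell mixture, so that test does not show how they perform on these libraries.

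Members and gene lists were chosen with earlier results of these data known. Named genes are all members, the 3 genes with the smallest limma p in each other list, and the 5 nearest profiles; Pdgfra, Fos, Rasa2 and Rps6ka2 were added after their values were seen. The split in astrocyte markers puts a library on the high side if the mean log2 level of 10 markers lies above the middle of its range. Alternatives changed the pseudocount, filter, scaling, block, libraries or tool. Promoters come from RefSeq's table of another build (GRCr8), matched by symbol.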

Additional observations from a re-analysis of the deposited data

Results flagged for a closer look

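Among 32 genes named in the text by the rule, a control library lay far from the other 3 in 2 genes. This was judged by its gap as a share of the range of the 4 controls, both taken on the log2(normalised count + 1) scale. Chance alone gives about 1 such flag in 20 genes. In Spred3 the gap was 0.862 of the range, with control replicate 2 at 309 normalised counts and the other controls at 581 to 642. In Fgfr1 it was 0.862 as well, with control replicate 1 at 12543 and the other controls at 7504 to 8054. None of the 10 feedback genes was flagged in this way.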

How the results depend on the processing

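The differences of the 10 members stayed above 0 in all 180 values from 18 alternatives fixed for this report, between 0.20 (Spred1) and 2.36 (Spry1). Of these values 1, that of Dusp1 in the 4 libraries low in astrocyte markers (1.61), moved by more than the spread between replicates. The values are not independent. A change of filter cannot alter a member's difference, and the replicate block gave the same differences as leaving out control replicate 4. All reuse the contrast that chose the list. The median of the members was 1.04 to 1.31 with single libraries left out. TMM and upper-quartile rescaling moved the median of all genes by less than 0.1 on the log2 scale. Call counts depended on tool and libraries. Genes called over the whole table numbered 0 with limma, 0 with edgeR (1165 at an unadjusted p under 0.05, against 1149 with limma), 141 with DESeq2 on the recovered reads, and 1218 with limma in the 4 libraries low in astrocyte markers (732 higher, 486 lower). In that last fit 9 of 10 members were called, all but Spred1, beside 4.02% of genes tested called higher; this is the contrast that chose the list, and why the fit calls more was not tested. With single libraries left out the count was 0 to 2. In a comparison added after the data were seen, members with groups apart numbered 6 in all libraries (4.09% of genes tested), 10 on the side low in astrocyte markers (31.2%), and 6 to 9 with single libraries left out (5.02% to 18.4%). The highest of those counts and shares were both without siRNLTR12-int replicate 1. The labels state no pairing by replicate number. Deviations of same-numbered libraries correlated at 0.75, -0.19 and 0.63 over genes for numbers 1 to 3, and those of differently numbered libraries at -0.70 to 0.57. This cannot decide on pairing, because the astrocyte split enters it: siRNLTR12-int replicate 2 is on the low side and control replicate 2 on the high side. A replicate block gave 0 called genes, a member median of 1.04 and 10 members above 0. Depth limits Dusp1 most, at 49 reads in control replicate 4.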
